A study of Mus musculus with 9 samples.

Results

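The genes described here are the collagens, the laminins, the secreted Adamts proteases, the matrix metalloproteinases (Mmp) and their tissue inhibitors (Timp). They were taken from the count table by symbol: Col with a chain number, Lama, Lamb or Lamc with a number, Adamts, Mmp with a number, and Timp with a number other than Timp1. Of 105 such genes, 38 had a mean of at least 5 counts over the SAE-labelled and CTL-labelled libraries, and these 38 are the members, out of 10077 genes in the whole table above the same floor. They are 18 collagens, 3 laminins, 9 Adamts genes, 6 Mmp genes and 2 Timp genes. The other 67 lay below the floor, 29 of them at 0 counts in all 6 libraries.

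The series holds 9 RNA sequencing libraries of hippocampus from adult BALB/c mice kept specific-pathogen-free, 3 for each label. The CCLF label stands for CLP, an operation in which the cecum is tied and pierced so that gut bacteria cause sepsis, together with flavonoids of Cuscuta chinensis at 200 mg/kg. The SAE label stands for CLP alone and the CTL label for a sham operation. Each group came from 3 of 9 mice that were divided at random; age in weeks, sex, time from surgery to sampling and route of the flavonoids were not stated.

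Library totals ran from 4626519 to 4895474 counts, and at this depth genes with a few counts per library had wide errors. Slc17a7, a gene of hippocampal excitatory neurons, had 27092 to 28917 counts in CCLF-labelled, 29600 to 30405 in SAE-labelled and 26508 to 26920 in CTL-labelled libraries. Lcn2, an acute-phase gene that infection is known to raise, had 4524 to 9635 counts in CCLF-labelled, 6 to 14 in SAE-labelled and 13246 to 14822 in CTL-labelled libraries, which goes against the labels, so every direction below is that of the labels as deposited. The CCLF-labelled columns stood apart in another way. In 95.1% of the 10077 genes all 3 CCLF-labelled values lay inside the range of the other 6 libraries, against 9.21% of genes for the SAE-labelled and 10.2% for the CTL-labelled libraries. The median ratio of variance to mean count between replicates was 0.368 in CCLF-labelled, 1.25 in SAE-labelled and 1.29 in CTL-labelled libraries, where counting noise alone gives a median below 1. For these reasons the comparison of SAE-labelled with CTL-labelled libraries was fitted without the CCLF-labelled columns.

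The extracellular matrix of the brain is thin around neurons and thick around vessels and under the meninges. There, type IV collagen and laminins form sheets called basement membranes, while fibrillar collagens come mainly from fibroblasts of the meninges and the vessel wall. Mmp and Adamts proteases cut these proteins and the proteoglycans between cells, and Timp proteins block the proteases. In infection and injury several of these proteases are known to be induced in vessel cells, glia and leukocytes.

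Of the 38 members, 21 were called in SAE-labelled against CTL-labelled libraries, 7 higher and 14 lower. A gene was called when its adjusted p, from the quasi-likelihood test of edgeR with Benjamini-Hochberg adjustment over all 10077 genes, was under 0.05. Among all genes tested 41.7% were called, 20.7% higher and 21.0% lower. The members' median log2 fold was −0.14, against 0.01 over all genes. By family, all 6 Mmp genes and 6 of 9 Adamts genes were called, against 5 of 18 collagens. All 3 laminins and 1 of 2 Timp genes were called. Mmp3, Mmp8, Mmp13 and Adamts3 had at most 4 counts in any SAE-labelled library and reached the floor only through their CTL-labelled counts. They are among the members more than 2-fold lower, and a gene that passes in this way can only come out lower. Their share of the family counts is therefore not independent of the floor. Col19a1 reached the floor through its SAE-labelled counts and was not called. More than 2-fold changes were 3 higher and 9 lower among the members, against 7.78% and 9.09% of all genes. None of the 18 collagens was called with a change of more than 2-fold. The SAE-labelled and CTL-labelled values did not overlap in 20 members, 6 higher and 14 lower, against 50.8% of all genes.

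**Figure D1:**
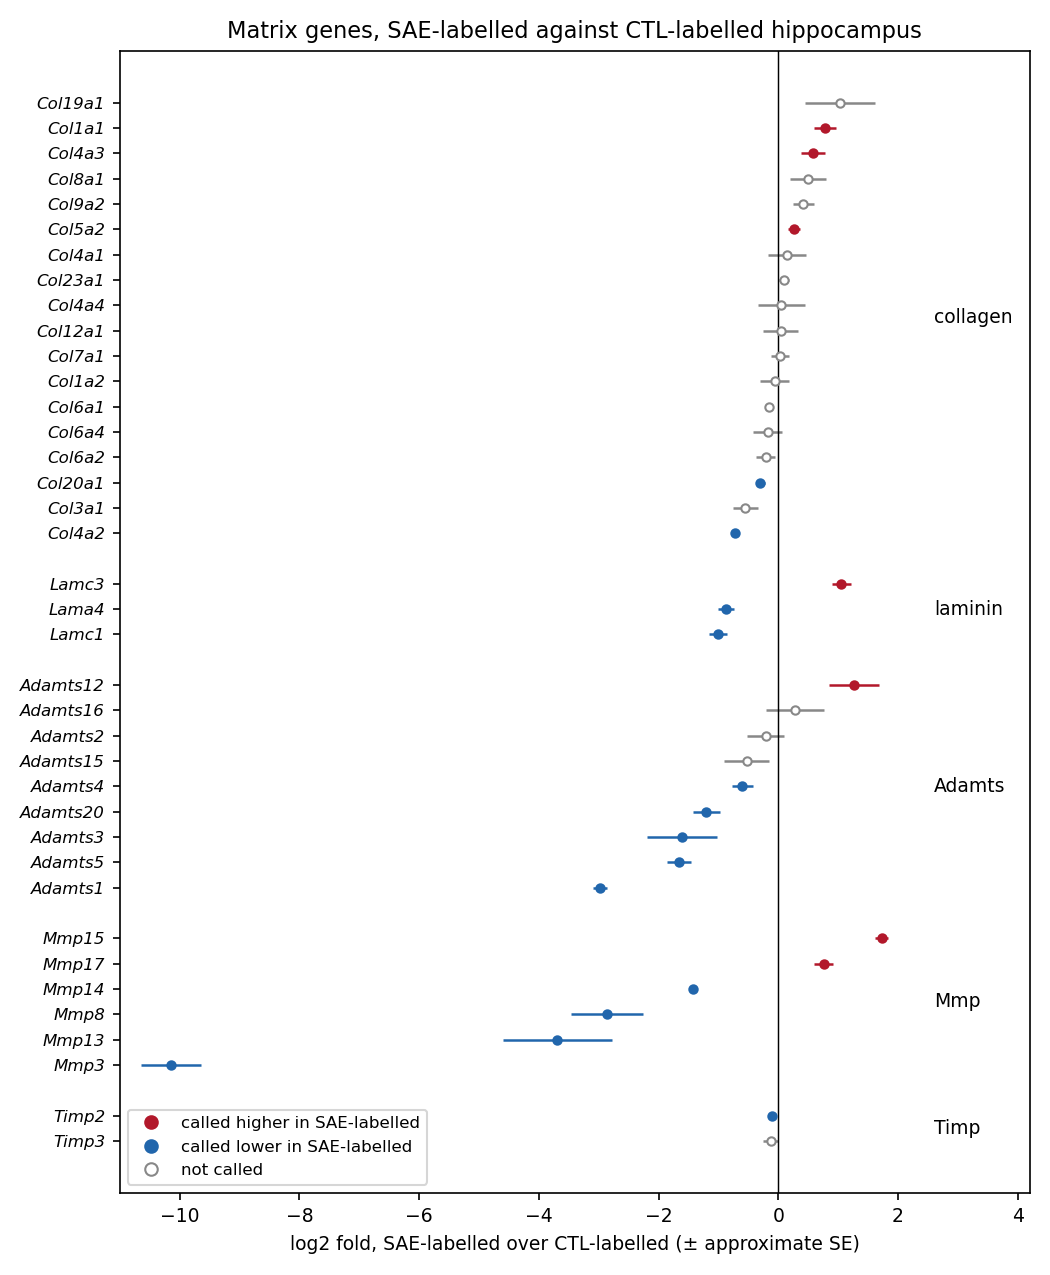
Fitted log2 fold of the 38 members, SAE-labelled over CTL-labelled libraries (x axis, ± approximate standard error), grouped by family; filled points are called and open points are not called. Proteases spread from −10.14 (Mmp3) to 1.73 (Mmp15), while collagens stay between −0.73 and 1.03; the value of Mmp3 depends on the fit, since only 1 count was seen in the SAE-labelled libraries.

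How a gene is listed in the table limited which genes could be studied. Of the 29 genes with 1 RefSeq row in the table, 24 (82.8%) reached the floor, and of the 76 with several rows, 14 (18.4%) did. Among the members with 1 row, 17 of 24 were called, and among those with several rows, 4 of 14. Members just inside the floor were Mmp13 (mean 5.33 counts), Col19a1 (5.67) and Adamts3 (6.17); just outside were Col14a1 (4.17), Col2a1 (4) and Col6a6 (3.17). Below the floor were laminin genes known from brain vessels, Lama2 (mean 1.17 counts), Lamb1 (1), Lama5 and Lamb2 (both 0), and the gelatinase genes Mmp2 (0.5) and Mmp9 (3). Mmp9, a protease known for opening the blood-brain barrier, had 1 to 3 counts in SAE-labelled and 2 to 7 in CTL-labelled libraries, too few to compare. Timp1 is outside the rule and had 0 counts in every library. Gapdh and Actb, which every cell uses, were listed at 1 to 5 and 0 to 1 counts per library, so a count near 0 in this table is not read here as low expression.

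Of the 7 type IV collagen and laminin members, 3 were lower in the SAE-labelled libraries (Col4a2, Lama4 and Lamc1), 2 were higher (Col4a3 and Lamc3) and 2 were not called. Levels are counts per 1000000 scaled library counts (CPM), not corrected for transcript length, so they are compared between libraries and not between genes. In bulk tissue, fewer cells of a type and less RNA per cell cannot be told apart. Col4a2 encodes a chain of the collagen that all basement membranes share. It had 423, 397 and 374 CPM in SAE-labelled libraries, against 688, 640 and 646 CPM in CTL-labelled libraries. The groups were far apart, with a mean of 398 ± 24.5 CPM in SAE-labelled and 658 ± 26.0 CPM in CTL-labelled libraries (SD, n = 3 each) and a log2 fold of −0.73 ± 0.05 (SE; edgeR adjusted p = 6.62e-14). Its partner Col4a1 lies next to it on chromosome 8, with start sites 21 bases apart on opposite strands. Col4a1 has 3 RefSeq rows and had only 14 to 21 counts per library; it was not called (0.15 ± 0.32, adjusted p = 0.74).

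Col4a3 and Col4a4, which encode chains best known from the kidney and the inner ear, are also neighbours. Col4a3 had 19.9, 13.7 and 14.2 CPM in SAE-labelled libraries, against 10.7, 12.7 and 8.31 CPM in CTL-labelled libraries (0.58 ± 0.2, adjusted p = 0.0171). The groups did not overlap, but the call rests on single libraries: the adjusted p was 0.168 without SAE replicate 1 and 0.0991 without CTL replicate 3, and DESeq2's Wald test gave 0.0725. Col4a4 had 1.44 to 5.7 CPM in SAE-labelled and 2.7 to 3.71 CPM in CTL-labelled libraries and was not called.

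The laminins moved in different directions. Lamc1 encodes the gamma chain of most laminins. It had 228, 239 and 189 CPM in SAE-labelled libraries, against 444, 495 and 374 CPM in CTL-labelled libraries, a log2 fold of −1.01 ± 0.15 (adjusted p = 0.0056). Lama4 encodes the alpha chain of the laminin of endothelial basement membranes. Its levels were 31.3, 32.2 and 24.9 CPM in SAE-labelled libraries, against 57.6, 57.9 and 45.1 CPM in CTL-labelled libraries (−0.87 ± 0.13, adjusted p = 1.28e-06). Both genes were at about the same fraction of their CTL-labelled level, and in neither did the groups overlap. Lamc3, a gamma chain with a narrower distribution that also marks meningeal fibroblasts, went the other way. It had 43.9, 49.8 and 35.7 CPM in SAE-labelled libraries, against 18.5, 16.4 and 27.0 CPM in CTL-labelled libraries (1.05 ± 0.16, adjusted p = 3.17e-05). The calls of all 3 laminins held in each of the 14 alternative analyses.

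Among 20 other basement membrane genes listed for this comparison, 7 could be tested, 1 was higher and 1 lower, with a median log2 fold of −0.13. For this list and the vessel markers below, the shares over all genes were 20.7% higher and 21.0% lower. The lower gene was Nid1, which encodes the nidogen that links laminin to type IV collagen. It had 52.8, 56.2 and 33.6 CPM in SAE-labelled libraries, against 139, 140 and 127 CPM in CTL-labelled libraries (−1.52 ± 0.17, adjusted p = 0.000412). The higher gene was Agrn, which encodes the proteoglycan agrin (1.05 ± 0.28, adjusted p = 0.00299). Agrn has 15 RefSeq rows and had a mean of only 29.3 counts, against 1 row and 433 counts for Nid1. Markers of vessel cells are given beside these genes. The summed level of 10 endothelial markers was 477 to 507 CPM in SAE-labelled and 349 to 382 CPM in CTL-labelled libraries. Of 4 tested, 2 were higher, Itm2a and Flt1 (0.6 ± 0.07), and 1 was lower, the tight junction gene Cldn5 (−1.05 ± 0.08). Itm2a had 193, 202 and 179 CPM in SAE-labelled libraries, against 44.5, 36.1 and 41.7 CPM in CTL-labelled libraries. Itm2a alone differed by about as much as the sums. Pecam1, Cdh5, Slco1a4 and Ly6a had a mean under 1 count. The sum of 10 pericyte and smooth muscle markers was 490 to 583 CPM in SAE-labelled and 329 to 359 CPM in CTL-labelled libraries, with 1 of 3 tested higher; Kcnj8, Abcc9, Higd1b, Ndufa4l2, Tagln, Myh11 and Cnn1 had a mean under 1 count. The part of these cells in the basement membrane result was not tested.

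**Figure D2:**
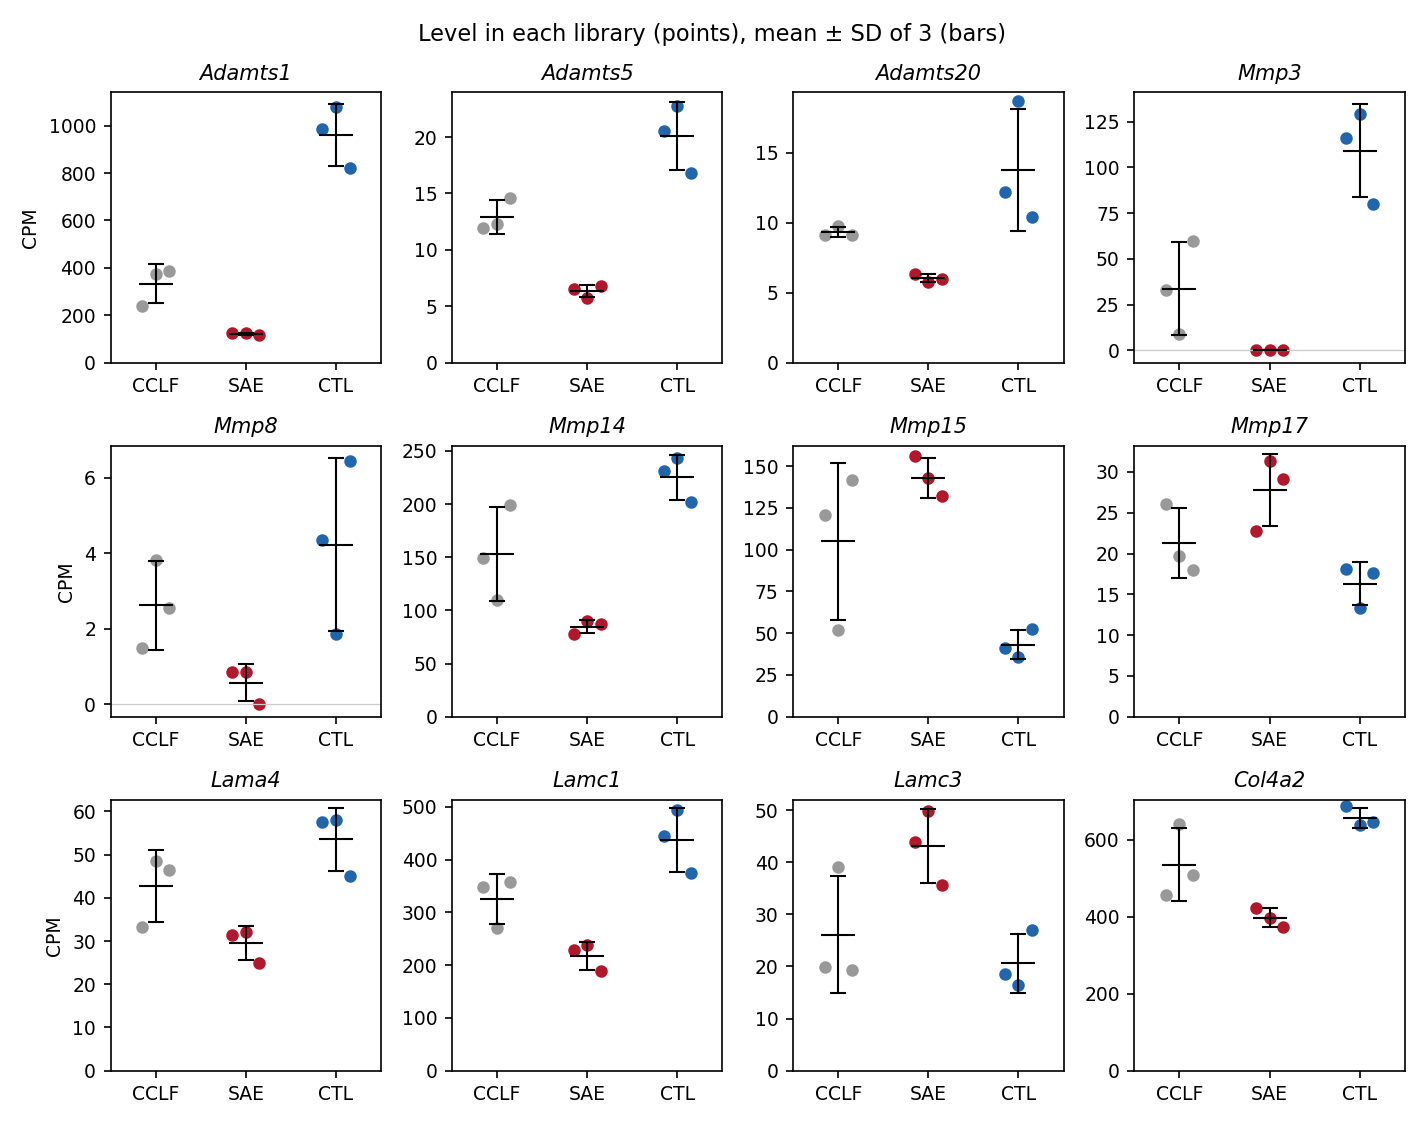
Level of 12 members in CPM (y axes) in each library labelled CCLF, SAE and CTL; points are libraries and bars are mean ± SD of 3. In these 12 genes SAE-labelled and CTL-labelled points do not overlap, and the CCLF-labelled points lie within the range of the other 6 libraries.

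Genes of the fibrillar collagens did not move together. Col1a1 encodes the major chain of type I collagen. It had 68.6, 82.4 and 47.8 CPM in SAE-labelled libraries, against 38.4, 35.3 and 41.3 CPM in CTL-labelled libraries (0.78 ± 0.19, adjusted p = 0.00849). SAE replicate 3 was the lowest of its group but still above all CTL-labelled libraries; without CTL replicate 2 the adjusted p was 0.055. Col1a2, the other chain of the same collagen, had 104, 130 and 75.4 CPM in SAE-labelled libraries, against 123, 94.5 and 102 CPM in CTL-labelled libraries. The groups overlapped and it was not called (−0.06 ± 0.24, adjusted p = 0.877).

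Col3a1, the type III chain of vessel walls, had 29.8, 37.8 and 21.2 CPM in SAE-labelled libraries, against 46.0, 49.0 and 34.5 CPM in CTL-labelled libraries. Its log2 fold was −0.55 ± 0.21 with an adjusted p of 0.0558, just short of the threshold. The adjusted p was 0.012 with DESeq2's Wald test, 0.015 with limma-voom, 0.00272 without CTL replicate 3 and 0.00133 without SAE replicate 2. Col5a2, a minor chain that regulates fibril width and the neighbour of Col3a1 on chromosome 1, had 69.3, 56.6 and 62.2 CPM in SAE-labelled libraries, against 50.2, 48.4 and 56.7 CPM in CTL-labelled libraries (0.27 ± 0.1, adjusted p = 0.0304). SAE replicate 2 lay just below CTL replicate 3, so the groups overlapped. Its call was lost without CTL replicate 1 (adjusted p = 0.0974), CTL replicate 2 (0.119), SAE replicate 1 (0.201) or SAE replicate 3 (0.0548), and with DESeq2's Wald test (0.1).

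Fibroblast markers varied within the SAE label. The summed level of 13 meningeal and perivascular fibroblast markers, leaving out Lamc3, was 271, 338 and 186 CPM in SAE replicates 1, 2 and 3, against 321, 287 and 298 CPM in CTL replicates 1, 2 and 3. Replicate 3 was the lowest and replicate 2 the highest SAE-labelled library for this sum, and the same held for Col1a1, Col1a2, Col3a1 and Lamc3. This order was not particular to them. Lama4, Lamc1, Col6a1, Col6a2, Nid1 and the sums of endothelial and of pericyte and smooth muscle markers had it too. Its share over all genes was not counted. Of 14 markers with Lamc3 included, 11 were tested. Of these, 4 were higher (Ogn, Slc22a6, Igf2 and Lamc3) and 1 lower, against 20.7% and 21.0% of all genes. The lower one was Foxc1 (−0.63 ± 0.16, edgeR adjusted p = 0.00135). Slc6a20a had 66.9, 95.0 and 51.3 CPM in SAE-labelled libraries, against 142, 126 and 121 CPM in CTL-labelled libraries. Its groups did not overlap, but it was not called (edgeR adjusted p = 0.051). Ogn, a small proteoglycan gene of meningeal fibroblasts that was singled out after its values were seen, had 45.8, 59.6 and 28.9 CPM in SAE-labelled libraries, against 15.3, 10.2 and 15.6 CPM in CTL-labelled libraries (1.7 ± 0.34, adjusted p = 0.0098). Slc6a13 and Pdgfrb had a mean under 1 count. The part of fibroblasts in the collagen and Lamc3 results was not tested.

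**Figure D3:**
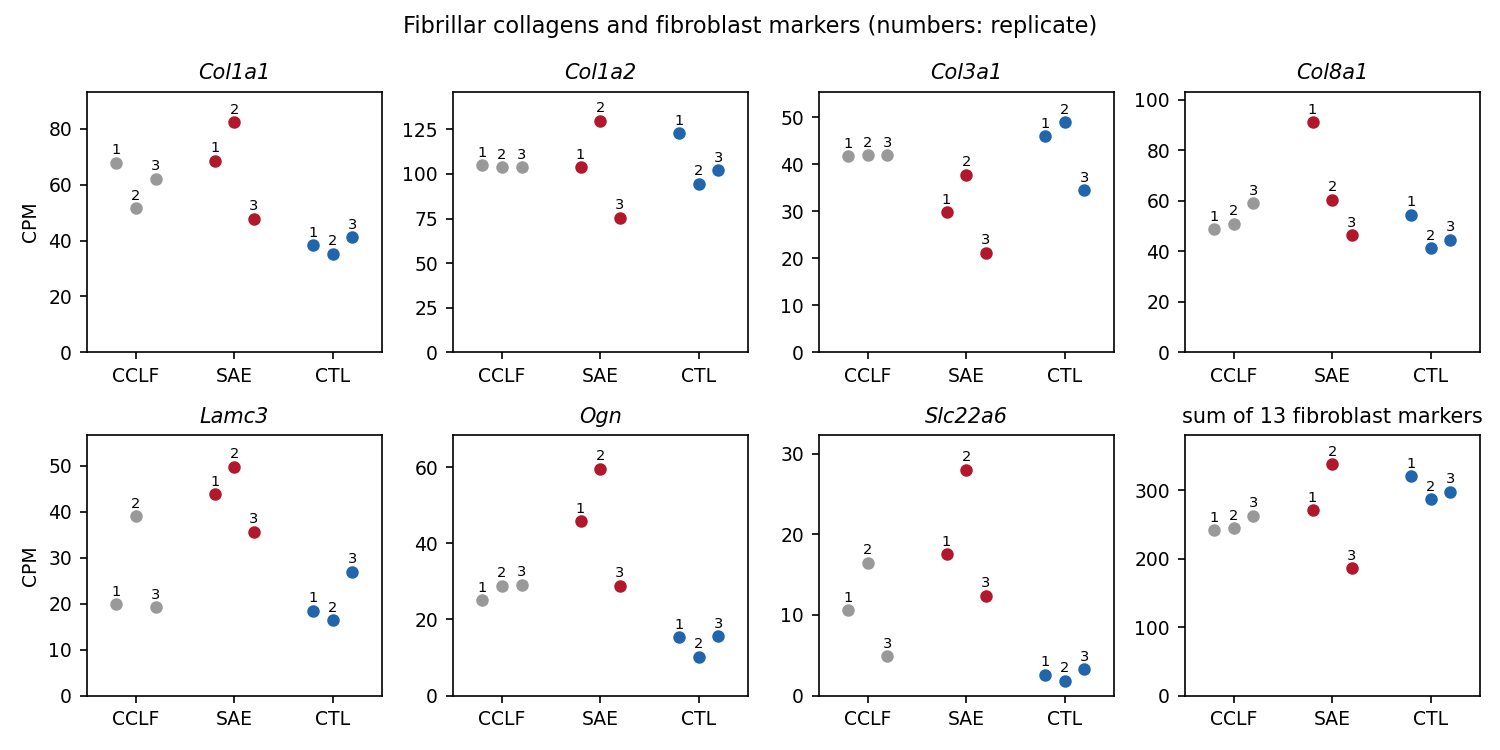
Levels in CPM (y axes) of 3 fibrillar collagen genes, Col8a1, Lamc3, the fibroblast markers Ogn and Slc22a6, and the sum of 13 fibroblast markers, by library; numbers are replicates. Within the SAE label, replicate 2 is the highest and replicate 3 the lowest in every panel except Col8a1, where replicate 1 is the highest. Members not shown here, such as Lama4 and Lamc1, have the same order. Ogn, Slc22a6 and Lamc3 are among the fibroblast markers called higher, and the marker called lower, Foxc1, is not shown.

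Most other collagens did not pass the test. Col20a1, a collagen of the fibril-associated group, fell slightly, to 79.0, 76.0 and 77.5 CPM in SAE-labelled libraries, against 99.5, 102 and 83.7 CPM in CTL-labelled libraries (−0.3 ± 0.08, adjusted p = 0.00418). The type VI chains, which form beaded filaments around cells, were not called, at −0.15 ± 0.06 for Col6a1 (adjusted p = 0.0554), −0.21 ± 0.16 for Col6a2 and −0.18 ± 0.25 for Col6a4. Col6a1 passed with DESeq2 size factors (adjusted p = 0.0418), under edgeR's own filter (0.0489), without CTL replicate 2 (0.0277) and without SAE replicate 2 (0.0224).

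Col8a1, a short-chain collagen of vessels, had 91.2, 60.4 and 46.4 CPM in SAE-labelled libraries, against 54.5, 41.1 and 44.6 CPM in CTL-labelled libraries. SAE replicate 1 stood above all others, and the log2 fold of 0.49 ± 0.3 was not called (adjusted p = 0.282); it was called without SAE replicate 3 (0.69, adjusted p = 0.0224). The sum of 11 choroid plexus markers was 1374, 877 and 689 CPM in SAE replicates 1, 2 and 3, against 835, 662 and 534 CPM in CTL replicates 1, 2 and 3. Of 5 tested, 1 was higher and 0 lower, against 20.7% and 21.0% of all genes. Otx2, Prlr and Slc4a5 had a mean under 1 count. Within the SAE label this sum had the same order as Col8a1 and Col4a4, and replicate 1 was also the highest for Col4a3. Other members, such as Col4a2, Col9a2, Mmp15 and Timp3, had this order too, so it was not particular to Col8a1 and Col4a4. The part of choroid plexus in these values was not tested. Col9a2, a fibril-associated chain, was at 0.42 ± 0.17 (adjusted p = 0.0505) and passed without CTL replicate 1 (0.0113) or SAE replicate 3 (0.0161). Col7a1 of anchoring fibrils (0.03 ± 0.15), the membrane collagen Col23a1 (0.09 ± 0.09), Col12a1 (0.04 ± 0.29) and Col19a1 (1.03 ± 0.58) were not called. Over the 18 collagens the median log2 fold was 0.04, with 3 higher, 2 lower and 13 not called. Exons of Col3a1 overlap the gene model Gm47302 on the same strand by 141 bases in GENCODE M21, those of Col4a3 overlap C430014B12Rik on the opposite strand by 563 bases, and those of Lamc3 overlap Gm13441 on the opposite strand by 382 bases, so reads there may be shared.

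Genes that build collagen and bind it were called in a few cases. Of 11 tested genes for collagen folding, modification and cross-linking, 3 were lower and 0 higher (median −0.06). For this list and the receptors below, the shares over all genes were 21.0% lower and 20.7% higher. Loxl1, which encodes a cross-linking enzyme, had 27.2, 25.6 and 19.4 CPM in SAE-labelled libraries, against 63.3, 62.5 and 41.1 CPM in CTL-labelled libraries (−1.21 ± 0.17, adjusted p = 6.99e-05). The chaperone subunit P4hb (−0.36 ± 0.05) and the export factor Mia3 (−0.14 ± 0.04) also fell. Of 8 tested collagen and laminin receptors, 1 was higher and 2 lower (median 0.09). Itgb1, the beta subunit that most of these receptors share, fell (−0.58 ± 0.07, adjusted p = 9.21e-07), as did its partner Itga2 (−0.97 ± 0.38), while Itga11, a collagen receptor of fibroblasts, rose (1.67 ± 0.2, adjusted p = 5.41e-08).

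Of the Adamts proteases 5 fell and 1 rose, and the median log2 fold of the 9 was −0.6. Adamts1 cuts the proteoglycans versican and aggrecan and is known as an early-response gene of inflamed endothelium. It had 125, 124 and 118 CPM in SAE-labelled libraries, against 985, 1079 and 821 CPM in CTL-labelled libraries. The SAE-labelled libraries averaged 122 ± 4.02 CPM and the CTL-labelled libraries 962 ± 131 CPM (SD, n = 3 each), 7.9-fold lower in SAE-labelled libraries, a log2 fold of −2.98 ± 0.12 (adjusted p = 9.18e-06). Adamts5, an aggrecan-cutting protease, is the neighbour of Adamts1 on chromosome 16. It had 6.55, 5.77 and 6.8 CPM in SAE-labelled libraries, against 20.5, 22.8 and 16.8 CPM in CTL-labelled libraries (−1.66 ± 0.2, adjusted p = 2.74e-08). Adamts20, which also cuts versican, had 6.34, 5.77 and 5.98 CPM in SAE-labelled libraries, against 12.2, 18.7 and 10.4 CPM in CTL-labelled libraries (−1.2 ± 0.23, adjusted p = 8.35e-05). These 3 calls held in every alternative that could give them.

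Calls for the other Adamts genes were weaker. Adamts4, an aggrecan-cutting protease that oligodendrocytes express, had 177, 171 and 171 CPM in SAE-labelled libraries, against 275, 302 and 203 CPM in CTL-labelled libraries (−0.6 ± 0.17, adjusted p = 0.0456). CTL replicate 3 lay nearest to the SAE-labelled libraries, and the adjusted p was 0.109 without CTL replicate 1 and 0.116, 0.12 and 0.141 without SAE replicates 1, 2 and 3. The summed level of 10 oligodendrocyte and precursor markers was 665 to 729 CPM in SAE-labelled and 313 to 331 CPM in CTL-labelled libraries. Of 9 tested, 7 were higher and 0 lower, against 20.7% and 21.0% of all genes.

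Adamts3, which cuts procollagen and activates the lymphatic growth factor VEGF-C, had 0.845, 0.214 and 0.824 CPM in SAE-labelled libraries, against 2.18, 2.49 and 1.25 CPM in CTL-labelled libraries (−1.61 ± 0.58, adjusted p = 0.026). It had 1 to 12 counts per library, and the adjusted p was 0.0751 without CTL replicate 1, 0.104 without CTL replicate 2, 0.122 without SAE replicate 2 and 0.11 with DESeq2's Wald test. Adamts12 was the 1 member of the family that rose, to 2.11, 3.84 and 4.33 CPM in SAE-labelled libraries, against 1.31, 1.66 and 1.25 CPM in CTL-labelled libraries (1.26 ± 0.42, adjusted p = 0.0155). The adjusted p was 0.0569 without SAE replicate 2, 0.0854 without SAE replicate 3 and 0.0828 with DESeq2's Wald test. The procollagen protease Adamts2 (−0.21 ± 0.31), Adamts15 (−0.53 ± 0.38) and Adamts16 (0.28 ± 0.49) were not called.

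Mmp genes held the largest changes among the members. Mmp3 encodes stromelysin, a secreted protease that cuts many matrix proteins and activates other Mmp proteins. It had 0, 1 and 0 counts in SAE-labelled libraries, against 534, 622 and 386 counts in CTL-labelled libraries. In CPM these were at most 0.214 in SAE-labelled and 116, 129 and 80.1 in CTL-labelled libraries. Mmp3 was 1548-fold lower in SAE-labelled than in CTL-labelled libraries, with a 95% counting interval of 277 to 61171 that covers counting error only (edgeR adjusted p = 9.17e-07).

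The collagenase genes Mmp8 and Mmp13 were also lower. Mmp8, a protease of neutrophil granules, had 4, 4 and 0 counts in SAE-labelled libraries, against 20, 9 and 31 counts in CTL-labelled libraries (−2.86 ± 0.6, adjusted p = 0.000575). Mmp13, an interstitial collagenase, had 0, 0 and 2 counts in SAE-labelled libraries, against 6, 20 and 4 counts in CTL-labelled libraries, 15.1-fold lower in SAE-labelled libraries with a counting interval of 3.82 to 130 (adjusted p = 0.0019). Neither gene passed edgeR's own expression filter, under which they were not tested. Neutrophil markers moved with Mmp8: the sum of 8 markers was 2.89 to 3.84 CPM in SAE-labelled and 47.7 to 67.1 CPM in CTL-labelled libraries. Of 4 tested, 3 were lower and 0 higher, against 21.0% and 20.7% of all genes. S100a9, Ly6g and Cxcr2 had a mean under 1 count, and S100a8 had 0.412 to 1.69 CPM in SAE-labelled and 34.3 to 36.8 CPM in CTL-labelled libraries. The part of neutrophils in the Mmp8 result was not tested.

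Mmp3, Mmp8 and Mmp13 lie in a run of 10 neighbouring Mmp genes on chromosome 9 (Mmp13, Mmp12, Mmp1b, Mmp3, Mmp1a, Mmp10, Mmp8, Mmp27, Mmp20 and Mmp7). The other 7 genes of the run had a mean of at most 0.17 counts.

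Membrane-bound Mmp proteases split. Mmp14 encodes the membrane-type protease that cuts collagen at the cell surface and activates Mmp2. It had 77.7, 89.9 and 86.8 CPM in SAE-labelled libraries, against 231, 243 and 202 CPM in CTL-labelled libraries (−1.42 ± 0.07, adjusted p = 2.15e-15). Mmp15, another membrane-type protease, rose to 156, 143 and 132 CPM in SAE-labelled libraries, against 41.0, 35.9 and 52.5 CPM in CTL-labelled libraries (1.73 ± 0.11, adjusted p = 1.19e-10). Mmp17, held to the membrane by a lipid anchor, had 22.8, 31.4 and 29.1 CPM in SAE-labelled libraries, against 18.1, 13.3 and 17.6 CPM in CTL-labelled libraries (0.76 ± 0.16, adjusted p = 0.000238). None of the 3 genes overlapped between groups. The family as a whole had 2 higher and 4 lower, with a median log2 fold of −2.14 set by Mmp8 and Mmp14. Of the lower genes, Mmp3, Mmp8 and Mmp13 reached the floor only through their CTL-labelled counts.

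The promoters of 5 proteases are shown: the lowered secreted proteases Mmp3, Mmp13 and Adamts1, which had the largest fitted falls in their families, and the membrane-type Mmp14, which was lower, and Mmp15, which was higher. Other lowered proteases are not printed. Of these, Mmp8 had a C/EBP match, no AP-1 match and a TATA box match on the opposite strand, starting 3 bases before the RefSeq start. Adamts20 had GC boxes and an NF-kB match and no TATA box. Each printed promoter is the 250 bases before the RefSeq start of the gene in build GRCm38.p6, printed 5′ to 3′ on the strand of the gene. They are Mmp3 at chr9:7445572-7445821 (plus strand), Mmp13 at chr9:7272264-7272513 (plus), Adamts1 at chr16:85803114-85803363 (minus), Mmp14 at chr14:54431348-54431597 (plus) and Mmp15 at chr8:95352046-95352295 (plus). Capitals mark matches, on either strand, to the AP-1 motif TGANTCA, the TATA box TATAAA and the GC box GGGCGG.
Mmp3: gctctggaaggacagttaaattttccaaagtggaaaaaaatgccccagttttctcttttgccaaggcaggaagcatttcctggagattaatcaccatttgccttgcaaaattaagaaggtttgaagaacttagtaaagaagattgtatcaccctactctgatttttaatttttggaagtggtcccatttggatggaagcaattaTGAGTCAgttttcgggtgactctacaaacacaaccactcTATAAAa
Mmp13: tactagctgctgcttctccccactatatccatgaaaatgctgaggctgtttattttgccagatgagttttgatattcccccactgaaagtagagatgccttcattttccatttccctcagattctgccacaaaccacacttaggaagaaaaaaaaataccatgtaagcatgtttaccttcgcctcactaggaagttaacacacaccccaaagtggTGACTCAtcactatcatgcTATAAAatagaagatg
Adamts1: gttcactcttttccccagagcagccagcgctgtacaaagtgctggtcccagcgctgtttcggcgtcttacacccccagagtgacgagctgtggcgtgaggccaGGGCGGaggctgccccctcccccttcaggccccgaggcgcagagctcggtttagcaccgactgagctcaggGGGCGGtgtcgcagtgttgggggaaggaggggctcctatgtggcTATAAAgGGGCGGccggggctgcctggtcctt
Mmp14: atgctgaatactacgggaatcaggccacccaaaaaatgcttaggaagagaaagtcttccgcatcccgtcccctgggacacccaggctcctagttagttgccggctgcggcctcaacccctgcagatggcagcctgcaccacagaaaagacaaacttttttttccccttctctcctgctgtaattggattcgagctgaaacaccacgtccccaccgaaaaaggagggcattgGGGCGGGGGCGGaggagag
Mmp15: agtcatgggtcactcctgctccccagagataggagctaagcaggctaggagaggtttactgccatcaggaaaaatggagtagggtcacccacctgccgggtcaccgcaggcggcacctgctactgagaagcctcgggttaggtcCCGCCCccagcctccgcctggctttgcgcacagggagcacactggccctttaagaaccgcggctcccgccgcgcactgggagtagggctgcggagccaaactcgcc

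Mmp3 and Mmp13 each had an AP-1 match, starting 46 and 35 bases before the start site, and a TATA box, starting 7 and 16 bases before it. Adamts1 had a TATA box 32 bases before the start and 3 GC boxes. Mmp14, which was lower, and Mmp15, which was higher, had GC boxes and no match to the AP-1 motif or the TATA box. Windows from 250 bases before to 50 after the start were found for 26 of the 38 members. AP-1 was matched in 3 of the 26, against 7.81% of 32851 windows of the same length over all genes. The TATA box was matched in 5 of 26, against 13.6% of all windows, and the GC box in 17 of 26, against 35.7%. By call, the TATA box letters were matched in 4 of 10 lowered (Mmp3, Mmp8, Mmp13 and Adamts1), 0 of 2 raised and 1 of 14 uncalled members. The places of these matches differed, and the one of Mmp8 lay on the opposite strand, starting 3 bases before the start site. The GC box was in 6 of 10 lowered, 1 of 2 raised and 10 of 14 uncalled members, and AP-1 in 2 of 10, 0 of 2 and 1 of 14. Other motifs searched were C/EBP (TTGCNNAA, 3 of 26, against 10.8%; 2 of 10 lowered, 0 of 2 raised and 1 of 14 uncalled), the NF-kB consensus (5 of 26, against 8.46%; 2 of 10 lowered, 0 of 2 raised and 3 of 14 uncalled), CRE (TGACGTCA, 0 of 26, against 1.79%) and the STAT motif TTCNNNGAA (0 of 26, against 8.3%). Among the lowered members, the AP-1 matches were in Mmp3 and Mmp13 and the C/EBP matches in Mmp3 and Mmp8. Mmp3, Mmp8 and Mmp13 reached the floor only through their CTL-labelled counts and could only come out lower. The split of TATA box, AP-1 and C/EBP matches by call is therefore not independent of the floor. A match describes letters in a window and is not a measured binding site.

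Inhibitors of the proteases changed little within the Timp family and more outside it. Timp2, which blocks Mmp proteins and takes part in the activation of Mmp2, had 1278, 1323 and 1344 CPM in SAE-labelled libraries, against 1427, 1377 and 1422 CPM in CTL-labelled libraries. The fall was small, a log2 fold of −0.11 ± 0.04 (adjusted p = 0.0199), and did not pass without CTL replicate 1 (0.0933), CTL replicate 3 (0.0534), SAE replicate 1 (0.085) or SAE replicate 2 (0.0503), or with no filter on low counts (0.057). Timp3, the inhibitor that binds to the matrix and also blocks Adamts proteases, had 604, 586 and 454 CPM in SAE-labelled libraries, against 596, 584 and 605 CPM in CTL-labelled libraries. SAE replicate 3 alone was low, and Timp3 was not called (−0.13 ± 0.12, adjusted p = 0.464). Exons of Timp3 overlap Syn3 on the opposite strand by 1733 bases in GENCODE M21, and whether reads were counted by strand is not stated. Timp4 had 0 counts.

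Of 25 other genes that control matrix proteolysis, 8 were tested, 2 were higher and 4 lower (median −0.24). Over all genes tested, 20.7% were higher and 21.0% lower. The plasminogen activator gene Plat had 145, 159 and 143 CPM in SAE-labelled libraries, against 475, 529 and 400 CPM in CTL-labelled libraries (−1.66 ± 0.11, adjusted p = 2.46e-05). A2m, a broad protease trap, fell to 33.8, 26.5 and 15.5 CPM in SAE-labelled libraries, against 397, 368 and 296 CPM in CTL-labelled libraries (−3.82 ± 0.29, adjusted p = 0.000667). In neither gene did the groups overlap. Lrp1, an uptake receptor for proteases and their inhibitors, fell (−0.2 ± 0.03, adjusted p = 1.27e-05). The higher genes were the protease Adam12 (0.69 ± 0.15) and the matrix proteoglycan Spock2 (0.19 ± 0.06).

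Substrates of these proteases were measured in a list of 26 proteoglycans and other brain matrix genes. Of these 15 were tested, 4 were higher and 2 lower (median 0.11), against 20.7% and 21.0% of all genes. Ncan, the lectican neurocan of nets around neurons, had 239, 255 and 247 CPM in SAE-labelled libraries, against 171, 174 and 172 CPM in CTL-labelled libraries (0.51 ± 0.06, adjusted p = 7e-09). Cspg4, a proteoglycan of oligodendrocyte precursors and pericytes, rose (0.79 ± 0.12, adjusted p = 0.000157). Ptprz1, a receptor-type proteoglycan of glia, also rose (0.59 ± 0.1, adjusted p = 0.000201). Hapln2, a link protein of nodes of Ranvier, fell to 22.2, 19.4 and 18.6 CPM in SAE-labelled libraries, against 55.4, 55.8 and 45.5 CPM in CTL-labelled libraries (−1.39 ± 0.13, adjusted p = 1.37e-10). The other higher gene was Ogn and the other lower one Thbs2, which encodes a thrombospondin (−0.39 ± 0.13, adjusted p = 0.0214).

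**Figure D4:**
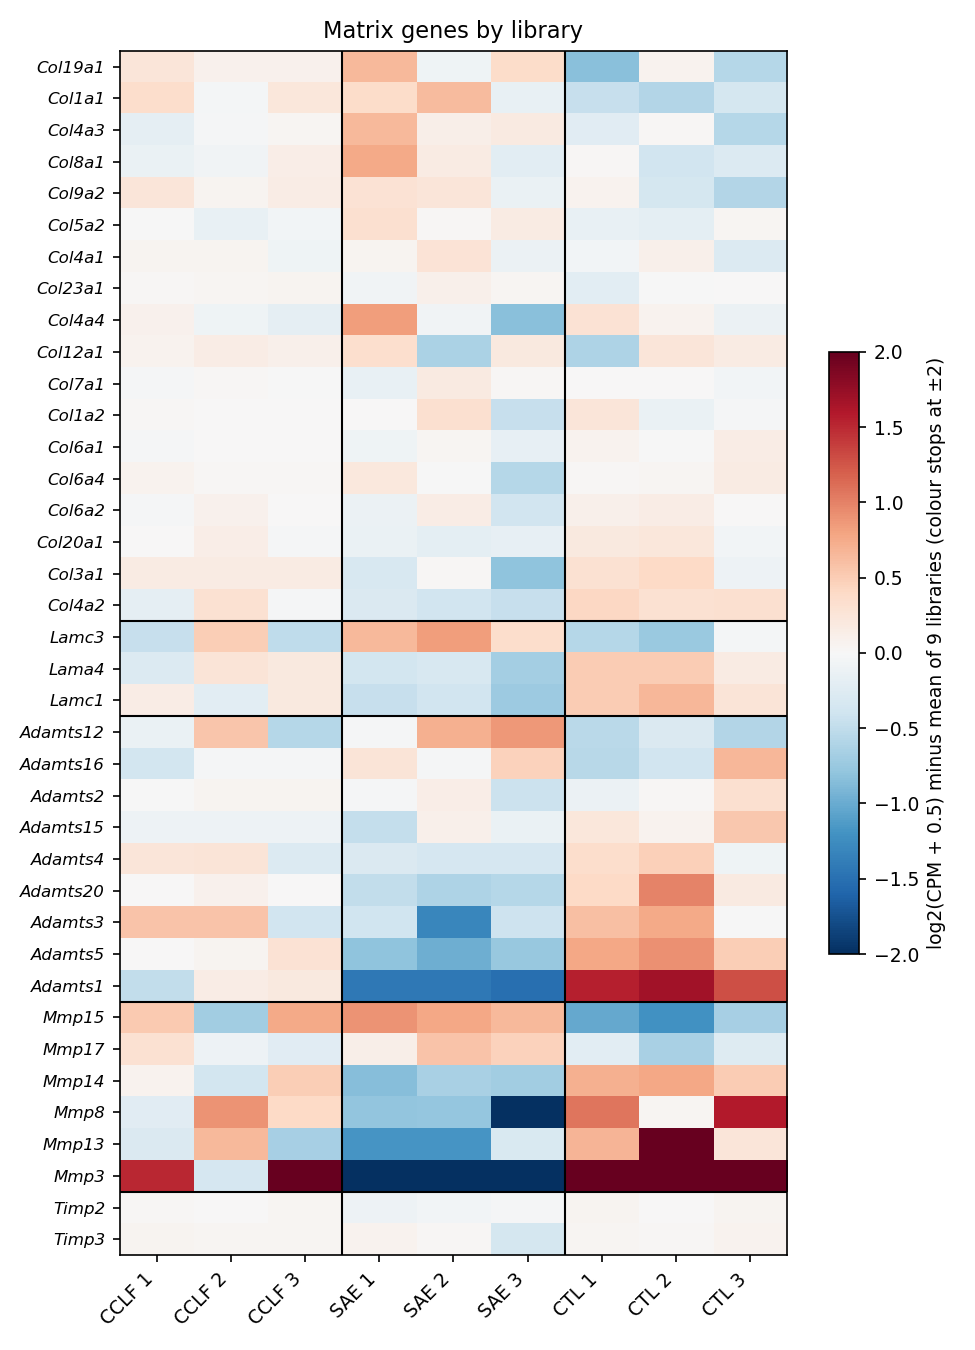
The 38 members (rows, grouped by family) in the 9 libraries (columns); colour is log2(CPM + 0.5) minus the mean of the 9 libraries, in log2 units, and stops at ±2. SAE-labelled and CTL-labelled columns contrast most in the Adamts and Mmp rows, and many collagen rows are nearly even across the CCLF-labelled columns.

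In all 38 members, all 3 CCLF-labelled values lay inside the range of the other 6 libraries, as against 1 of 38 for the SAE-labelled and 5 of 38 for the CTL-labelled libraries. Over all genes tested these shares were 95.1%, 9.21% and 10.2%, so the members were much like the other genes here. Some members were nearly identical across the CCLF-labelled columns: Col1a2 had 493, 492 and 492 counts, Col3a1 197, 198 and 198, and Adamts15 11, 11 and 11. Others varied widely: Mmp3 had 154, 41 and 281 counts and Mmp15 had 569, 243 and 667. Tests of these columns assume independent libraries, and whether they are independent was not tested.

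With that limit, 5 of 38 members were higher in CCLF-labelled than in SAE-labelled libraries and 0 were lower, where 6.59% of all genes were called (4.40% higher and 2.19% lower). They were Adamts1, which had 238, 374 and 387 CPM in CCLF-labelled libraries, against 125, 124 and 118 CPM in SAE-labelled libraries (1.44, adjusted p = 0.00841), and Adamts5 (1.02, 0.00728), Adamts20 (0.63, 0.0319), Lamc1 (0.58, 0.0354) and Mmp3 (32.7, 8.7 and 59.6 CPM in CCLF-labelled, at most 0.214 in SAE-labelled libraries, 0.0284). The number called was 0 without SAE replicate 1, 0 without SAE replicate 2 and 1 without SAE replicate 3. Against the CTL-labelled libraries 2 of 38 members were called, where 5.04% of all genes were (3.25% higher and 1.80% lower). Adamts1 was lower (−1.53, adjusted p = 0.0258), and Col1a1 was higher, with 67.9, 51.6 and 62.2 CPM in CCLF-labelled libraries against 38.4, 35.3 and 41.3 CPM in CTL-labelled libraries (0.66, adjusted p = 0.0213). The number called was 0 when any of the 3 CTL-labelled libraries was left out. These comparisons share libraries with the first, so a gene called in more than 1 of them is not separate evidence.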

How the data were processed

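RNA from hippocampus was depleted of ribosomal RNA and sequenced, per the labels' protocols. The authors deposited whole-number counts for 120312 RefSeq transcripts; fastp and Salmon were used, per the submitters' processing notes; versions, index, build and strand settings: not given in the sources used here. All 120312 rows were matched to symbols with RefSeq's GRCm38.p6 table and summed to 38911 genes. Libraries (4626519 to 4895474 counts) were scaled with TMM factors. Each comparison was fitted on its 2 groups alone with edgeR's quasi-likelihood F test (robust, no covariate), on the 10077 genes with a mean of at least 5 counts over CTL-labelled and SAE-labelled libraries, with Benjamini-Hochberg adjustment and a call under 0.05. Approximate SE are |log2 fold| over the root of F. CPM were scaled over all 9 libraries. Replicates are separate mice, per the series' design text.

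The members, lists and tests were chosen with earlier results of these data known. Members were named by smallest p within each family and direction, with a fixed set of well-known ones. Up to 4 genes per list were named by smallest p. Ogn, Slc22a6, Igf2, Foxc1, Slc6a20a, S100a8, Cldn5, Itm2a, Flt1, Adam12, Spock2 and Thbs2 were named after their values were seen. Alternatives were DESeq2 size factors, DESeq2's Wald test, limma-voom, edgeR's filterByExpr, no filter, all 9 libraries, a replicate block, genes with 1 RefSeq row, and each library left out. The procedure was tested on simulated data. Promoter sequences are RefSeq's. Some items named by these rules are not reported here. Fits used edgeR 4.0.16, DESeq2 1.42.0 and limma 3.58.1 under R 4.3.3, and tables and figures pandas 2.3.3, scipy 1.17.1 and matplotlib 3.10.9 under Python 3.11.15.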

Additional observations from a re-analysis of the deposited data

How the results depend on the processing

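Of the 21 members called in SAE-labelled against CTL-labelled libraries, 14 kept their direction and call in every alternative that could give them; the other 7 are named in the text with the libraries or tools that end the call. The number of members called was 17 to 24 over all alternatives, and 17 to 20 with a library left out (3627 to 4006 of all genes). By family, with a library left out, 1 to 4 collagens were higher and 2 to 4 lower, 0 to 1 Adamts genes higher and 3 to 5 lower, and 0 to 1 Timp genes lower. DESeq2's Wald test called 1 collagen and 0 Adamts genes higher. Under filterByExpr, which left 5 members untested, 4 collagens and 2 Mmp genes were lower. With no filter 0 Timp genes were lower. With 1 RefSeq row per gene, where fewer genes are tested, 2732 of all genes were called, 1 collagen and 3 Adamts genes were lower and 1 Mmp gene was higher. Signs turned only in uncalled members. Col4a4 was at −0.15 with limma-voom, −0.02 with the replicate block and −0.6 to 0.41 with a library left out, Col12a1 at −0.19 to 0.29, Col1a2 at −0.26 to 0.12, Col6a4 at −0.37 to 0.03 and Col7a1 at −0.05 to 0.11. Same-numbered libraries of SAE and CTL had deviations correlated at 0.0201, −0.0239 and 0.019 over all genes tested. These values show no pairing by number over the genes as a whole, but could miss a pairing that affects few genes. With the replicate block 24 members were called, 5 collagens higher among them. Between CCLF-labelled and SAE-labelled libraries 8 members were called by DESeq2's Wald test and 0 to 7 with a library left out (144 to 688 of all genes). Between CCLF-labelled and CTL-labelled libraries 4 members were called by DESeq2's Wald test and 0 to 3 with a library left out (14 to 525 of all genes), and 858 of all genes were called with all 9 libraries fitted and 286 with 1 RefSeq row per gene. The cause of these changes was not tested. Depth limits the members with low mean counts, such as Mmp13 (5.33), Adamts3 (6.17), Mmp8 (11.33) and Adamts12 (11.5).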
